A study of Mus musculus with 24 samples.

Results

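Matrix turnover in the liver was described here through 10 genes, the tissue inhibitors of metalloproteinases Timp1, Timp2 and Timp3, the matrix metalloproteinases Mmp2, Mmp12, Mmp14, Mmp15 and Mmp19, the procollagen-trimming protease Adamts2 and the collagen crosslinking enzyme Lox. They were chosen by gene symbol, and all 10 were found among the 41388 genes counted. The 10 genes, and the gene lists used below, were chosen with earlier results of these data known. Shares of them that differed between groups, given below beside those of all genes, are therefore descriptions only. Bulk RNA sequencing of liver compared WT mice with Adn-Lpin1-/- mice, whose adipocytes lack lipin 1, a phosphatidic acid phosphatase, on a low-fat diet (LFD, 10% of kcal from fat) and on a high-fat diet (HFD, 60% of kcal from fat). The Adn-Lpin1-/- mice carried floxed Lpin1 alleles and Cre driven by the adiponectin promoter. The WT mice were littermates homozygous for the same floxed alleles but without Cre, so carriage of Cre and loss of Lpin1 cannot be told apart. The mice were on a C57BL/6J background, and per the study's methods they were males placed on the diets at 8 weeks of age. The methods give 5 weeks of feeding and the sample labels give 16 weeks. Livers were taken after a fast of 4 hours. The 4 groups were WT LFD, Adn-Lpin1-/- LFD, WT HFD and Adn-Lpin1-/- HFD, each with 5 single-mouse libraries, which were analysed, and 1 library of RNA pooled from its 5 mice, which entered only alternative fits.

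Metalloproteinases are zinc enzymes that cut collagens, basement membrane and other matrix proteins, and the TIMPs bind and block them. Mmp2 encodes gelatinase A, whose proenzyme is activated at the cell surface by the membrane-anchored enzyme encoded by Mmp14 with the help of TIMP2. Mmp15 encodes another membrane-anchored metalloproteinase, and Mmp12 encodes macrophage elastase. ADAMTS2 removes the amino-terminal propeptide of fibrillar procollagens, and LOX oxidises lysines of collagen and elastin so that the fibres crosslink. In liver, hepatic stellate cells and portal fibroblasts are known as major sources of TIMPs, MMP2 and fibrillar collagen, and macrophages are known as the source of MMP12.

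On GRCm38, Timp1 lies at chrX:20870166-20874735, Timp2 at chr11:118301069-118355740, Timp3 at chr10:86300372-86349506, Mmp2 at chr8:92827328-92853417, Mmp12 at chr9:7344381-7369499, Mmp14 at chr14:54431604-54441258, Mmp15 at chr8:95352268-95374293, Mmp19 at chr10:128790953-128800824 and Adamts2 at chr11:50602084-50807573. Of these, Timp2 is on the minus strand and the others are on the plus strand. The reference tables held promoter windows (RefSeq, GRCm38.p6, 250 bases before to 50 after a start) for 7 of the 10 genes, and Mmp12 had 2 of them. Upstream sequence is shown for Adamts2, which separated the genotypes most clearly on the LFD, for Timp3, which did so on the HFD, and for Mmp12, whose fold change was the largest of the tested members in both genotype comparisons. Each line gives the last 100 bases of a window that lie before the start and outside the annotated exons of the gene, 5′ to 3′ on its plus strand. Those of Adamts2 (chr11:50601984-50602083) and Timp3 (chr10:86300272-86300371) end directly before the first annotated exon, and that of Mmp12 (chr9:7347274-7347373) ends directly before the first exon of its shorter transcripts and lies in an intron of the longer ones. Capitals mark the GC box motif GGGCGG on either strand and the AP-1 motif TGAGTCA, and the stretch of Timp3 holds neither.
Adamts2: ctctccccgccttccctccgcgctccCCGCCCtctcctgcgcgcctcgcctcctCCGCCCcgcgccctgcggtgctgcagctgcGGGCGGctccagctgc
Timp3: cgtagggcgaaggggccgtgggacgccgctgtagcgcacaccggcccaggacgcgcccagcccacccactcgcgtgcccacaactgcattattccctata
Mmp12: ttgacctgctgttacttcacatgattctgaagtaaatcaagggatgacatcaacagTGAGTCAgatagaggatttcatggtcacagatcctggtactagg
Both of these and the TATA box motif TATAAA were searched on both strands of the whole windows, and no matches overlapped. GGGCGG, which 35.7% of all 32851 windows hold, was found in the windows of Timp1, Timp2, Timp3, Mmp14, Mmp15 and Adamts2 and in neither window of Mmp12. TGAGTCA, held by 5.2% of windows, was found in 1 of the Mmp12 windows, 44 bases upstream of the start, and TATAAA, held by 13.6%, was found in the same window from base 5 after the start. Neither was found in a window of the other 6 genes. The windows of Timp2, Timp3 and Adamts2 had a GC content of 68.7%, 67.0% and 77.3%, and those of Mmp12 38.7% and 40.7%, where the median of all windows was 52.7%. These matches describe letters in the reference sequence, and binding was not measured.

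Mice had between 36260187 and 81072794 counts each. The median total of the Adn-Lpin1-/- group over that of the WT group was 1.3 (LFD) and 1.09 (HFD). CPM here means counts divided by the library size, after scaling by edgeR's TMM method, and multiplied by 1000000. Lpin1 itself was deleted in adipocytes, and its liver level, between 120 and 1190 CPM over the 20 mice, is no check of the genotype labels. Hepatocyte markers summed to between 74100 and 121000 CPM in every library. Of 5 adipocyte markers, 4 (Adipoq, Lep, Plin1 and Retn) had group means under 1 CPM, and Cfd, called higher in Adn-Lpin1-/- livers on both diets, reached 183 CPM in Adn-Lpin1-/- HFD. Mesothelial markers summed to 14.8 CPM in mouse 2 of Adn-Lpin1-/- LFD and to at most 7.12 CPM in the other 19 mice. Of the 10 genes, 8 exceeded 1 CPM in 4 or more of 20 libraries and were tested with the 13052 genes that passed this limit. Mmp12 passed with 5 libraries over 1 CPM, all of them from Adn-Lpin1-/- mice, so it entered the test only through the genotype in which it was high. Timp1 and Lox were over 1 CPM in 0 libraries and had no test in the same fit.

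Per length of transcript, the membrane-anchored and secreted metalloproteinases Mmp15, Mmp19 and Mmp14 stood far above the other genes in every group. On the RPKM scale, from the same scaled library sizes, Mmp15 had the highest group mean in each group, between 16.3 and 19.1 RPKM. Its 5 mice lay above those of the next gene in each group except Adn-Lpin1-/- HFD, where they overlapped Mmp19. Mmp19 (10.4 to 13.6 RPKM) and Mmp14 (10.2 to 11.7 RPKM) followed, and their ranges overlapped except in Adn-Lpin1-/- HFD. Timp2 came next with group means between 1.73 and 3.43 RPKM. Timp3, Mmp2 and Adamts2 lay between 0.37 and 1.16 RPKM and could not be ordered among themselves, since the ranges of neighbours overlapped in each group. Timp1 (0.0956 to 0.378 RPKM), Mmp12 (0.0212 to 0.235 RPKM) and Lox (0.0228 to 0.0634 RPKM) were lowest. The 3 TIMPs summed to 2.18 ± 0.506 (WT LFD), 5.01 ± 1.95 (Adn-Lpin1-/- LFD), 2.98 ± 0.624 (WT HFD) and 4.99 ± 1.68 (Adn-Lpin1-/- HFD) deposited RPKM (SD, n = 5). The 5 metalloproteinases summed to 41.5 ± 1.76, 40.9 ± 5.49, 42.0 ± 1.7 and 43.7 ± 5.17 deposited RPKM in the same order, and the differences between these means were smaller than the SD of either Adn-Lpin1-/- group. The largest, 43.7 against 40.9, exceeded the SD of either WT group. Mmp15, Mmp19 and Mmp14 made up most of this sum, so it says little about Mmp2 or Mmp12.

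**Figure D1:**
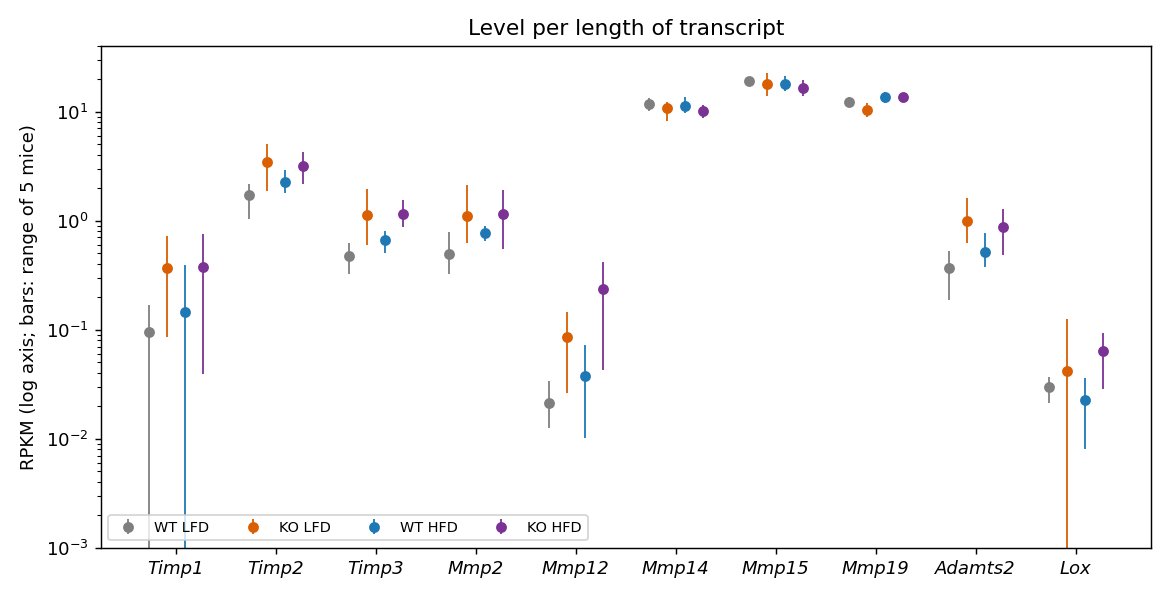
Mean RPKM of each gene on a log axis in WT LFD, KO LFD, WT HFD and KO HFD, where KO stands for Adn-Lpin1-/-. Bars run from the lowest to the highest of 5 mice, and bars that reach the bottom end at 0. Mmp15 leads in each group with means of 16.3 to 19.1 RPKM, and Mmp12 and Lox are lowest.

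The first comparison asked how the liver differed by genotype on the LFD. Mmp12, which entered the test through the Adn-Lpin1-/- mice, is described apart. Of the other 7 tested members, 4 were higher in Adn-Lpin1-/- LFD (Timp2, Timp3, Mmp2 and Adamts2) and 1 was lower (Mmp19) with an adjusted p of 0.05 or less by the quasi-likelihood test of edgeR, where 14.4% of all tested genes passed, 6.27% higher and 8.11% lower. The median log2 fold change over all genes tested was 0.007. In bulk RNA, fewer cells of a type and less RNA per cell cannot be told apart.

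Timp2, the inhibitor that also takes part in activation of pro-MMP2, was at 7.85, 7.15, 4.02, 8.49 and 6.11 CPM in WT LFD mice 1 to 5 and at 7.33, 19.7, 13.1, 10.2 and 16.4 CPM in Adn-Lpin1-/- LFD mice 1 to 5. Mouse 1 of Adn-Lpin1-/- LFD lay inside the WT range and the other 4 above it. The log2 fold change was 0.99 (SE 0.25, adjusted p = 0.0117 by edgeR), 1.98-fold on the linear scale. Timp3, which binds to the matrix, was at 5.12, 3.8, 2.62, 4.06 and 3.62 CPM in WT LFD and at 4.89, 9.83, 8.9, 6.15 and 15.8 CPM in Adn-Lpin1-/- LFD. Again only mouse 1 of the latter fell inside the WT range. The log2 fold change of Timp3 was 1.24 (SE 0.26, adjusted p = 0.00335 by edgeR). The annotated exons of Timp3 share 1733 bases with those of Syn3 on the opposite strand, which had 22 to 94 counts per mouse, and the sources used here do not say whether strand was used in counting. Timp1, whose protein is measured in serum panels for liver fibrosis, was near the limit of detection with 17 counts over the 5 WT LFD mice and 91 counts over the 5 Adn-Lpin1-/- LFD mice. Its levels were between 0 and 0.148 CPM in WT LFD and between 0.0758 and 0.636 CPM in Adn-Lpin1-/- LFD, with 4 of 5 mice above the highest WT mouse. The exact two-sided permutation test gave p = 0.0317 for Timp1, which became 0.127 after adjustment over the 40 such tests of 10 genes in 4 comparisons.

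Adamts2 had the clearest separation of the LFD groups. It was at 2.99, 3.44, 1.76, 4.87 and 4.22 CPM in WT LFD and at 5.8, 15.1, 8.45, 8.71 and 8.52 CPM in Adn-Lpin1-/- LFD, and the groups did not overlap. On the log2 scale the fold change was 1.43 (SE 0.31, adjusted p = 0.00469 by edgeR) and passed in all 31 alternative fits, as those of Timp2 and Timp3 did, and the exact two-sided permutation test gave p = 0.00794, the smallest that 5 mice against 5 allow, or 0.106 adjusted over the 40 tests. Adamts2 was the only 1 of the 8 tested members whose LFD groups did not overlap, where 10.1% of all tested genes had groups that did not. Lox, the crosslinking enzyme, was at 0.103 to 0.179 CPM in WT LFD and at 0 to 0.598 CPM in Adn-Lpin1-/- LFD. Its highest value, 31 counts, came from mouse 2, and the other 4 mice were at 0.152 CPM or less.

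Among the metalloproteinases, Mmp2 was at 1.98, 0.99, 1.07, 2.37 and 1.13 CPM in WT LFD and at 1.89, 6.48, 3.25, 2.1 and 3.05 CPM in Adn-Lpin1-/- LFD, where 3 mice lay above the WT range. Its log2 fold change was 1.15 (SE 0.36, adjusted p = 0.0374 by edgeR). This call lay near the threshold. With all mice kept, it was lost by voom with quality weights (adjusted p = 0.0614). By edgeR it was lost in a fit of the 2 LFD groups alone (0.0571) and with the GC trend removed (0.0522). It was also lost without mouse 2, 3 or 5 of WT LFD and without mouse 2, 3 or 5 of Adn-Lpin1-/- LFD. The lowest log2 fold change, 0.77 (adjusted p = 0.148 by edgeR), came without mouse 2 of Adn-Lpin1-/- LFD, the mouse with the highest mesothelial marker sum. Mmp12 was at 0.09 to 0.247 CPM in WT LFD and at 0.189, 1.04, 0.446, 0.365 and 1.05 CPM in Adn-Lpin1-/- LFD, with 4 of 5 mice above the WT range. The log2 fold change of 2.00 (SE 0.73) had an adjusted p of 0.0705 by edgeR and passed the threshold in 6 of 31 alternative fits. Among these were the DESeq2 Wald test (0.0176) and edgeR on the 2 LFD groups alone (0.0295). It also passed by edgeR when mouse 1 of Adn-Lpin1-/- LFD (0.045) or mouse 4 of Adn-Lpin1-/- HFD (0.0429) was left out. Mmp19 went the other way, with 39.9, 40.4, 39.7, 43.3 and 46.2 CPM in WT LFD against 33.8, 36.6, 35.5, 30.5 and 41.1 CPM in Adn-Lpin1-/- LFD, and 4 of 5 mice below the WT range. Its log2 fold change of -0.24 (SE 0.08, adjusted p = 0.0405 by edgeR) was small and was lost without mouse 2, 4 or 5 of WT LFD and without mouse 1, 2, 3 or 4 of Adn-Lpin1-/- LFD, with an adjusted p of up to 0.102. Exons of Mmp19 share 789 bases with Tmem198b on the opposite strand, which had 143 to 431 counts. The membrane-anchored enzymes did not pass the test. Mmp14 was at 26.2 to 34.8 CPM in WT LFD and 21.2 to 31.8 CPM in Adn-Lpin1-/- LFD (log2 fold change -0.13, SE 0.11; 95% interval of the fold 0.782 to 1.06, adjusted p = 0.46 by edgeR). Mmp15 was at 74.0 to 89.8 CPM and 60.7 to 98.7 CPM (log2 fold change -0.09, SE 0.12; 95% interval of the fold 0.802 to 1.1, adjusted p = 0.65 by edgeR).

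**Figure D2:**
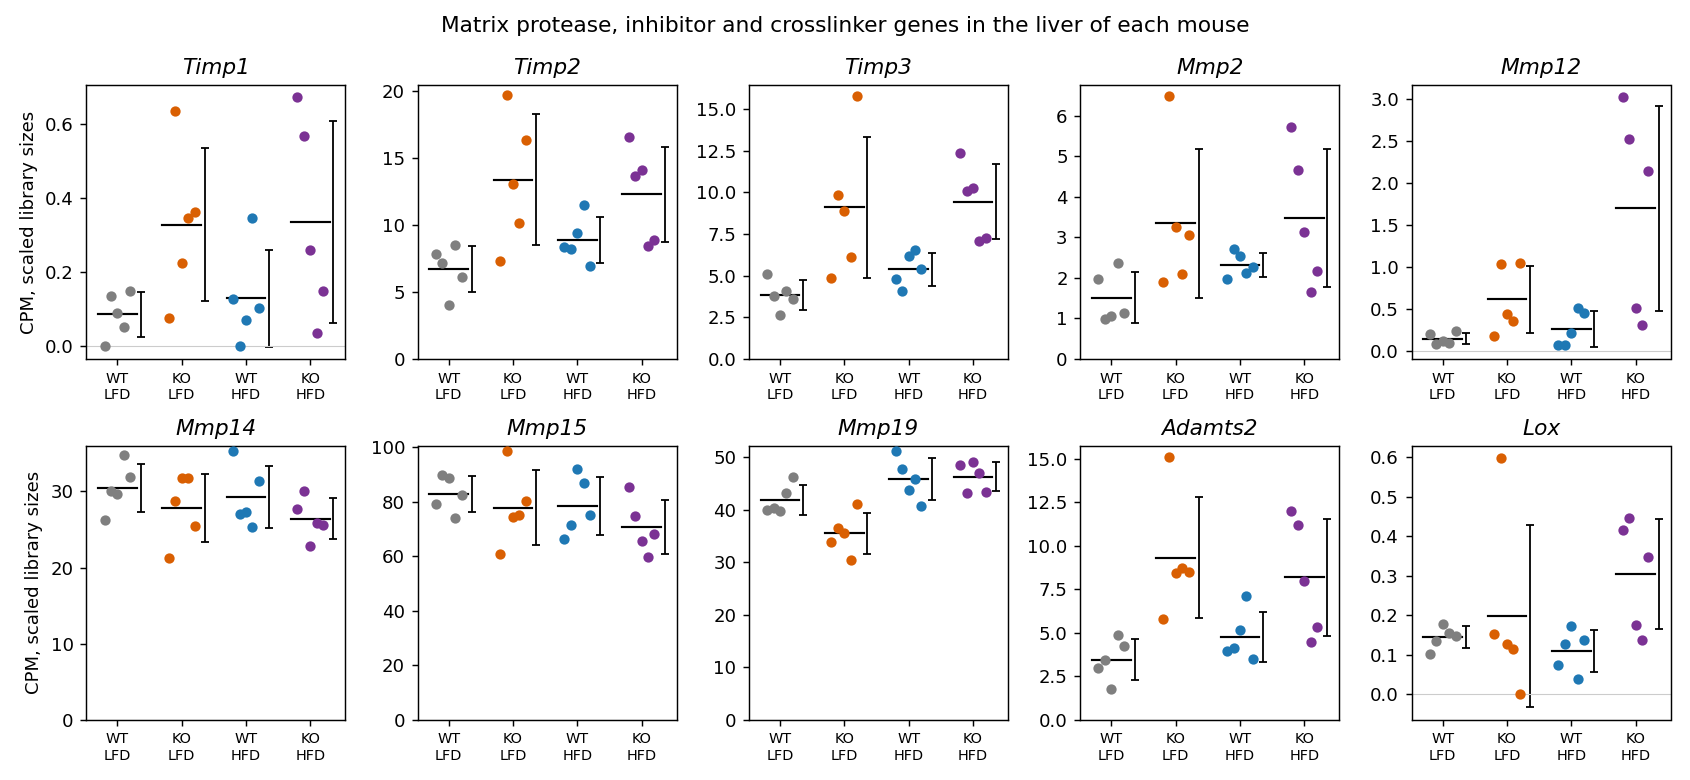
CPM on scaled library sizes of the 10 genes, 1 panel per gene and 1 point per mouse in order of mouse number, with the group mean (line) and SD (bar beside it) of 5 mice; KO stands for Adn-Lpin1-/-. Axes differ between panels. Adamts2 on the LFD, from 1.76 to 4.87 CPM in WT and from 5.8 to 15.1 CPM in KO, and Timp3 on the HFD separate fully by genotype, whereas Mmp14 and Mmp15 overlap in all groups.

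On the HFD, 1 of the same 7 members was higher in Adn-Lpin1-/- livers (Timp3) and 0 were lower, where 18.6% of all tested genes passed, 9.87% higher and 8.78% lower. The share of the 7 called in either direction does not exceed the 18.6%. With 1 gene called, no difference from the 9.87% of all tested genes called higher can be read. Mmp12 was called too, but it had passed the limit on low counts through libraries of Adn-Lpin1-/- mice.

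Timp3 was at 4.83, 4.08, 6.17, 6.53 and 5.41 CPM in WT HFD and at 12.4, 10.1, 10.3, 7.11 and 7.25 CPM in Adn-Lpin1-/- HFD. The groups did not overlap, which held for 11.4% of all tested genes and for no other tested member. The log2 fold change was 0.80 (SE 0.25, adjusted p = 0.0308 by edgeR) and the exact two-sided permutation p was 0.00794, or 0.106 adjusted over the 40 tests. The call of Timp3 was lost without mouse 1, 2 or 5 of WT HFD and without mouse 1, 2 or 3 of Adn-Lpin1-/- HFD, with an adjusted p of up to 0.082 by edgeR. Timp2 was at 6.92 to 11.5 CPM in WT HFD and at 16.6, 13.7, 14.1, 8.42 and 8.91 CPM in Adn-Lpin1-/- HFD, where mice 4 and 5 lay inside the WT range. The log2 fold change of Timp2, 0.47 (SE 0.24, 95% interval of the fold 0.999 to 1.93, adjusted p = 0.179 by edgeR) did not pass. Timp1 had 35 counts over the 5 WT HFD mice and 116 over the 5 Adn-Lpin1-/- HFD mice, with ranges of 0 to 0.346 CPM and 0.0345 to 0.672 CPM (exact two-sided permutation p = 0.183).

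Mmp12 had the largest change of the tested members. It was at 0.073, 0.0728, 0.225, 0.52 and 0.462 CPM in WT HFD and at 3.02, 2.52, 0.516, 0.311 and 2.15 CPM in Adn-Lpin1-/- HFD. Mice 1, 2 and 5 of the latter were above every WT mouse, and mice 3 and 4 were not. On the log2 scale the fold change was 2.65 (SE 0.62, adjusted p = 0.00725 by edgeR), 6.26-fold with a 95% interval of 2.68 to 14.6. Since Mmp12 was over 1 CPM in 0 WT and 5 Adn-Lpin1-/- libraries, that test was open to it only through the genotype in which it was high. Without the limit on low counts, over 28454 genes, its log2 fold change was 2.64 (SE 0.58, adjusted p = 0.00638 by edgeR). The exact two-sided permutation test, which used no limit, gave p = 0.0397 for Mmp12, or 0.132 adjusted over the 40 tests. Mmp2 was at 1.97 to 2.71 CPM in WT HFD and at 5.73, 4.67, 3.13, 1.66 and 2.17 CPM in Adn-Lpin1-/- HFD, so that 3 mice lay above the WT range and 1 below it (log2 fold change 0.58, SE 0.34, adjusted p = 0.252 by edgeR). The ratio of Mmp2 to Timp2 CPM was 0.224 ± 0.0602 (WT LFD), 0.245 ± 0.0553 (Adn-Lpin1-/- LFD), 0.269 ± 0.0613 (WT HFD) and 0.27 ± 0.0689 (Adn-Lpin1-/- HFD; SD, n = 5), and these means differed by less than 1 SD. Adamts2 was at 3.51 to 7.14 CPM in WT HFD and at 12.0, 11.2, 7.97, 4.47 and 5.36 CPM in Adn-Lpin1-/- HFD. For Adamts2 the log2 fold change of 0.78 (SE 0.3, adjusted p = 0.0728 by edgeR) passed without mouse 4 of WT HFD (0.0416), mouse 4 of Adn-Lpin1-/- HFD (0.0321) or mouse 5 of Adn-Lpin1-/- HFD (0.0475). Lox was at 0.0385 to 0.173 CPM, 31 counts in all, in WT HFD and at 0.138 to 0.447 CPM, 107 counts in all, in Adn-Lpin1-/- HFD, with 4 of 5 mice above the WT range (exact two-sided permutation p = 0.0159, or 0.127 adjusted over the 40 tests). Mmp14, Mmp15 and Mmp19 had log2 fold changes of -0.15, -0.15 and 0.01 with 95% intervals of the fold of 0.775 to 1.05, 0.771 to 1.06 and 0.91 to 1.12, and the sign of Mmp19 turned in 4 alternative fits.

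**Figure D3:**
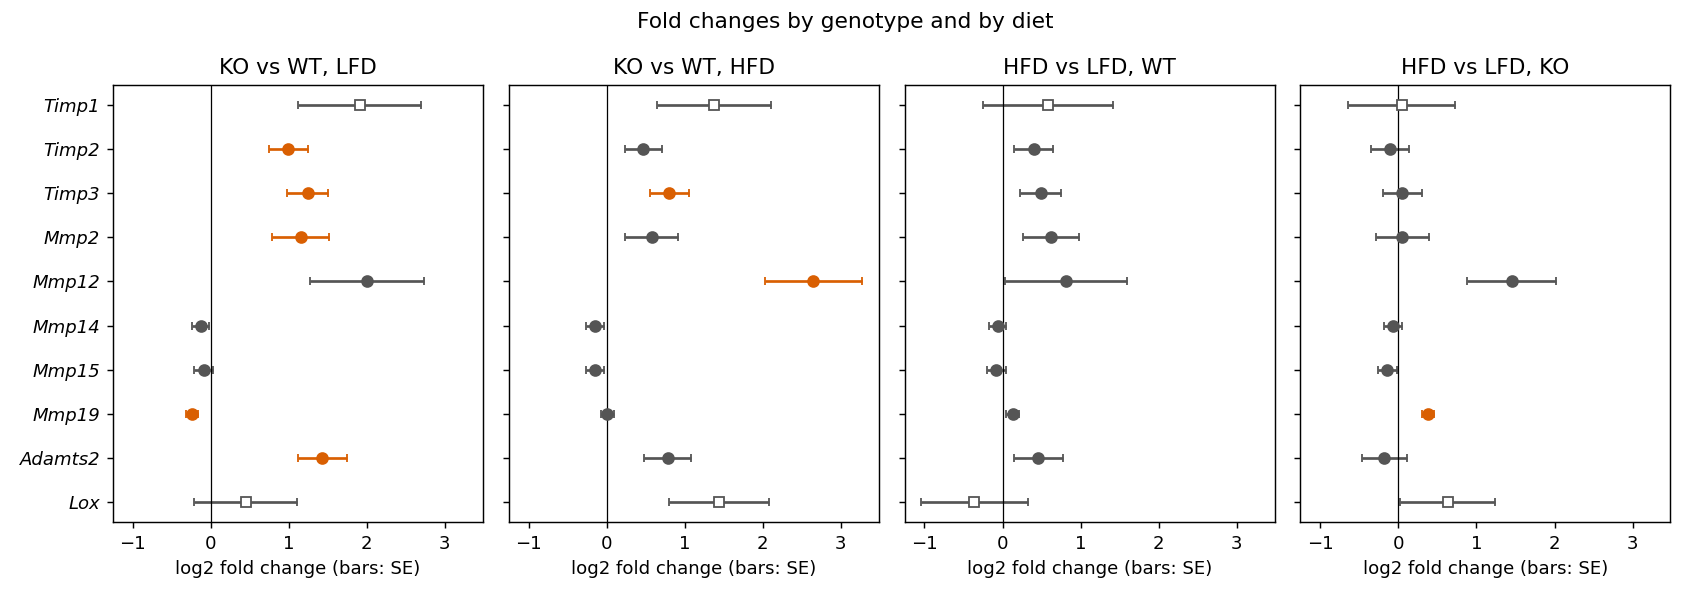
Log2 fold change of each gene (points) with its SE (bars) for KO against WT on each diet and for the HFD against the LFD in each genotype, where KO stands for Adn-Lpin1-/-. Orange marks an adjusted p at or below 0.05, and open squares are Timp1 and Lox, which come from a fit without the limit on low counts. Timp2, Timp3, Mmp2 and Adamts2 lie at 0.99 to 1.43 on the LFD and at 0.47 to 0.80 on the HFD.

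The effect of diet was then taken within each genotype. In WT mice, 0 of the 8 tested members differed between the HFD and the LFD by edgeR, and 0 had an unadjusted p under 0.05, where 1.1% of all tested genes were called. By voom with quality weights and the pools, 1 member was called (Mmp19, log2 fold change 0.18, adjusted p = 0.0243), and 0 by DESeq2. Log2 fold changes were between -0.08 for Mmp15 and 0.81 for Mmp12. No tested member had WT groups that did not overlap, where 3.73% of all tested genes did. In Adn-Lpin1-/- mice, Mmp19 was the 1 tested member that differed by diet, where 2.46% of all tested genes were called, 1.2% higher. It was at 33.8, 36.6, 35.5, 30.5 and 41.1 CPM on the LFD and at 48.6, 43.2, 49.1, 47.1 and 43.5 CPM on the HFD, every HFD mouse above every LFD mouse. Groups that did not overlap were found for 4.06% of all tested genes. The log2 fold change of Mmp19 was 0.38 (SE 0.08, adjusted p = 0.0104 by edgeR). Its exact two-sided permutation p was 0.00794, or 0.106 adjusted over the 40 tests. Timp2, Timp3, Mmp2 and Adamts2 had diet log2 fold changes between -0.18 and 0.05 in Adn-Lpin1-/- mice, with 95% intervals of the fold of 0.666 to 1.28, 0.741 to 1.45, 0.651 to 1.64 and 0.59 to 1.31. Mmp12 was 1.45 higher on the log2 scale on the HFD in Adn-Lpin1-/- mice (SE 0.57), with an adjusted p of 0.203 by edgeR.

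Whether the genotype effect itself depended on diet was tested as an interaction. For 0 of the 8 tested members and 0.0% of the 13052 genes did the genotype effect differ between the diets in edgeR's test, and 1 member, Mmp19, had an unadjusted p under 0.05 (adjusted p = 0.66 by edgeR). DESeq2 called 30 genes and 0 members. The estimates were negative, which means a smaller genotype effect on the HFD, for Timp2 (-0.51, SE 0.35), Timp3 (-0.44, SE 0.36), Mmp2 (-0.57, SE 0.5) and Adamts2 (-0.65, SE 0.43), and 0.25 (SE 0.11) for Mmp19. A gene called on 1 diet and not on the other was therefore not shown to differ between the diets.

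Within groups, some mice were high or low for several genes, more so in the Adn-Lpin1-/- groups. Mouse 1 of Adn-Lpin1-/- LFD was the lowest of its group for 8 of the 10 genes, and mouse 2 was the highest for 6. In Adn-Lpin1-/- HFD, mouse 4 was the lowest for 8 and mouse 1 the highest for 7. In WT LFD, mouse 3 was the lowest for 4 and mouse 4 the highest for 4, and in WT HFD mouse 4 was the highest for 5. Deviations of log2 CPM from the group means were compared over the 20 mice for the 28 pairs of tested members, with 100000 permutations within groups and adjustment over the pairs. By both Pearson's r and Spearman's rho, 8 pairs passed. Timp2 went with Adamts2 (r = 0.87, rho = 0.83, permutation test adjusted p = 0.00084 and 0.0021), with Timp3 (r = 0.85, rho = 0.89, permutation test adjusted p = 0.00126 and 0.00084) and with Mmp2 (r = 0.79, rho = 0.77, permutation test adjusted p = 0.00896 and 0.0116). With the 2 mice farthest from the median of Timp2 left out, r was 0.82, 0.77 and 0.79. Mmp12 went with Mmp15 (r = 0.71, rho = 0.73, permutation test adjusted p = 0.0147 and 0.0116; r = 0.63 with 2 mice left out). Mmp14 had an r between -0.01 and 0.26 with the other members and Mmp19 one between -0.05 and 0.43, and no pair with either passed. Members of a pair share libraries and scaling.

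The 2 tested genes whose deviations followed each member most closely over the 20 mice were taken as a description. For Timp2 they were Col6a3 (r = 0.95), a collagen VI chain, and Itga8 (r = 0.94), an integrin subunit of stellate cells and fibroblasts. For Adamts2 they were Smoc2 and Col1a1, the main chain of collagen I, each with r = 0.95. Mmp2 was followed by Col6a1 (r = 0.87) and Col6a3 (r = 0.84), and Timp3 by Lyve1 (r = 0.9), a marker of sinusoidal endothelium, and Ltbp4 (r = 0.89), a latent TGF-β binding protein. Mmp12 was followed by Tmem86a (r = 0.89) and Prss8 (r = 0.88), Mmp14 by Nono (r = 0.78) and Irak4 (r = 0.76), Mmp15 by Ptpn21 and Prrc2b (r = 0.86 each), and Mmp19 by Haus7 (r = 0.89) and Thsd1 (r = 0.88). These genes were picked as the highest of all tested genes, and no p was computed.

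Markers of other liver cells were counted against the share of all tested genes that were higher (6.27% on the LFD, 9.87% on the HFD) or lower (8.11% and 8.78%). Of 12 stellate cell and fibroblast markers, all 12 tested, 4 were higher in Adn-Lpin1-/- LFD (Pdgfrb, Lum, Acta2 and Dcn) and 2 in Adn-Lpin1-/- HFD (Pdgfrb and Acta2). Their summed level on the LFD was 104 to 195 CPM in WT and 181 to 289 CPM in Adn-Lpin1-/- mice, and on the HFD it was 180 to 244 CPM in WT and 198 to 302 CPM in Adn-Lpin1-/- mice. Of 13 macrophage markers, 1 was higher on the LFD (Gpnmb) and 8 on the HFD (Gpnmb, Cd68, Csf1r, Timd4, Lyz2, Clec4f, Itgax and Vsig4). Gpnmb, the 1 LFD call, was over 1 CPM in 0 WT and 6 Adn-Lpin1-/- libraries, and Itgax in 2 WT and 7 Adn-Lpin1-/- libraries. Both passed the limit on low counts only through Adn-Lpin1-/- libraries, as did Trem2, which was not called. The counts of 1 and 8 therefore include genes that entered the test through the genotype in which they were high. The macrophage sums were 142 to 228, 185 to 328, 157 to 173 and 187 to 396 CPM in the same order, and in the last group the 2 mice with the lowest Mmp12 had the 2 lowest sums, 214 and 187 CPM. Of 8 endothelial markers, 3 were higher on the LFD (Pecam1, Cdh5 and Lyve1) and 5 on the HFD, and of 7 hepatocyte markers 2 were lower on the LFD and 4 on the HFD. None of the stellate cell, macrophage, endothelial or hepatocyte markers was at 0 in a whole group. The limit on low counts was passed by 5 of 6 cholangiocyte, 3 of 6 mesothelial and 1 of 8 lymphoid or neutrophil markers. No tested one of these was called by genotype, and the others had no test. Plin1 in Adn-Lpin1-/- LFD and Retn in WT LFD were at 0 in all 5 mice.

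Over the 20 mice, deviations of the members from the group means were set against those of the summed markers in 20 relations, with 100000 permutations within groups. The sums were of plain CPM, so markers with high levels weighed most. In WT LFD, mean levels of stellate cell markers ran from 0.937 CPM (Acta2) to 29.4 CPM (Reln) and 75.8 CPM (Dcn). Those of macrophage markers ran from 0.175 CPM (Gpnmb) to 61.5 CPM (Clec4f). No relation with the endothelial sum was computed. Timp2 followed the stellate cell sum most closely (r = 0.89, permutation test adjusted p = 0.0004; rho = 0.87, permutation test adjusted p = 0.0008), and r was 0.88 with the 2 mice farthest from the median of the sum left out. Adamts2 (r = 0.77, rho = 0.72), Timp3 (r = 0.77, rho = 0.77) and Mmp2 (r = 0.67, rho = 0.7) followed it too, with adjusted p of at most 0.0199 by either measure in the permutation test, and r was 0.75, 0.74 and 0.68 with 2 mice left out. Mmp12 did not pass with this sum (r = 0.37, permutation test adjusted p = 0.171) and passed with the macrophage sum (r = 0.73, permutation test adjusted p = 0.00845; rho = 0.71, permutation test adjusted p = 0.011; r = 0.62 with 2 mice left out). Timp3 (r = 0.7, rho = 0.68) and Timp2 (r = 0.63, rho = 0.66) also passed with the macrophage sum, with r = 0.75 and 0.62 with 2 mice left out. Mmp14 had r = -0.02 with the stellate cell sum and 0.17 with the macrophage sum. The part of stellate cell and macrophage content in the differences by genotype was not tested.

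**Figure D4:**
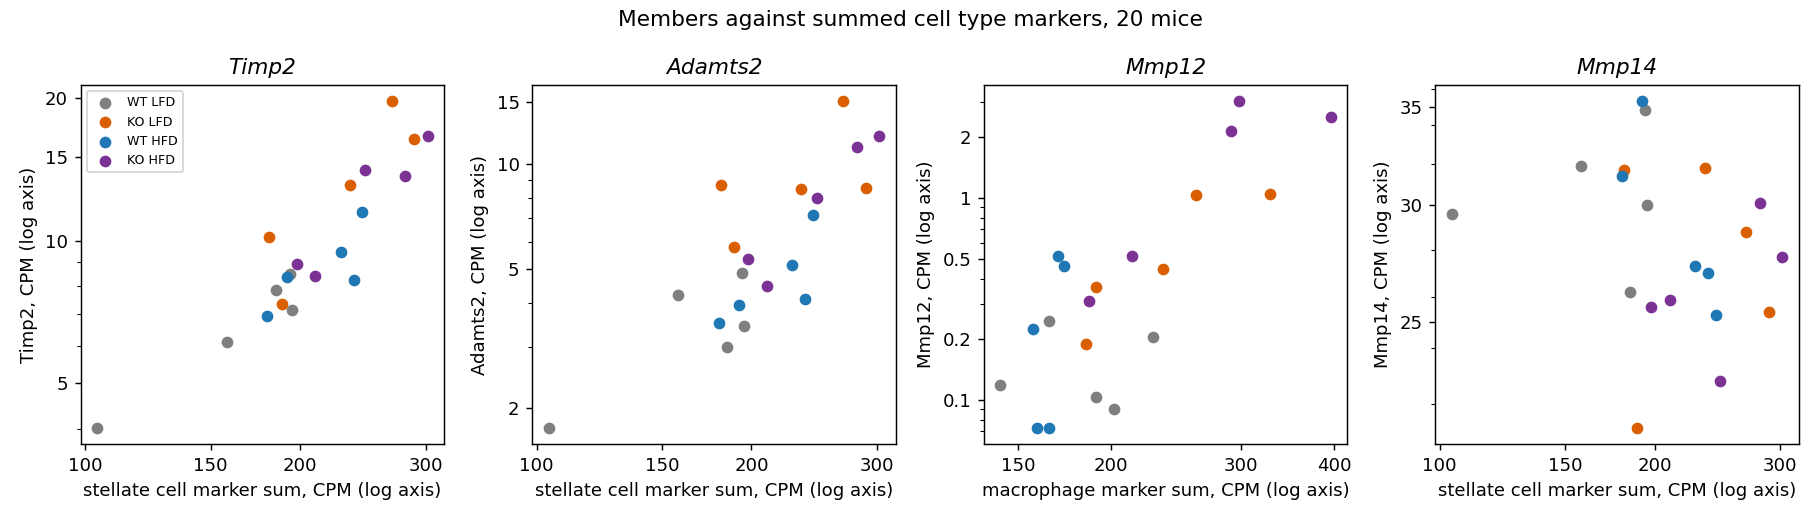
Each of 20 mice as 1 point, with the summed CPM of stellate cell or macrophage markers on the x axis and the CPM of Timp2, Adamts2, Mmp12 or Mmp14 on the y axis, both log scales; KO stands for Adn-Lpin1-/-. Timp2 and Adamts2 rise with the stellate cell sum (r of 0.89 and 0.77 within groups) and Mmp12 with the macrophage sum (0.73). Mmp14, shown against the stellate cell sum only, does not rise with it (-0.02).

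The other genes of matrix turnover were taken from lists chosen with earlier results of these data known. The lists covered metalloproteinases, their inhibitors, ADAMTS and ADAM proteases, crosslinking enzymes, procollagen processing, collagen modification and the plasminogen system. Of 89 such genes that are not among the 10, 49 passed the limit on low counts. On the LFD, 10 were higher and 4 lower in Adn-Lpin1-/- livers, 28.6% against 14.4% of all genes, and the median on the log2 scale was 0.19. On the HFD, 8 were higher and 6 lower, 28.6% against 18.6%, with a median of 0.29. Of the 49, 5 passed the limit with under 4 WT libraries, 2 of them called on the LFD (Mmp23 and P3h4) and 0 on the HFD, so the counts and medians describe the tested genes only. By diet, 1.1% of all tested genes were called in WT mice and 2.46% in Adn-Lpin1-/- mice. Of the 49, 0 were higher and 1, or 2.04% and so near those shares, was lower in each genotype. This was Reck, a membrane-anchored inhibitor of metalloproteinases, at 5.66 ± 1.36 CPM (SD, n = 5) in WT LFD and 3.54 ± 0.423 CPM in WT HFD (log2 fold change -0.68, SE 0.16, adjusted p = 0.0414 by edgeR) and at 6.04 ± 0.742 CPM in Adn-Lpin1-/- LFD and 3.52 ± 0.55 CPM in Adn-Lpin1-/- HFD (-0.78, SE 0.16, adjusted p = 0.0122 by edgeR). Its call in WT mice was kept in 13 of 31 alternatives and that in Adn-Lpin1-/- mice in all 31.

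Of 18 further metalloproteinases, 1 was tested. This was Mmp23, which was higher in Adn-Lpin1-/- LFD, from 0.595 ± 0.295 CPM (SD, n = 5) in WT LFD to 1.59 ± 0.496 CPM (2.64-fold, adjusted p = 0.0124 by edgeR) and did not pass on the HFD (1.94-fold, adjusted p = 0.0569 by edgeR). Mmp23 was over 1 CPM in 0 WT and 9 Adn-Lpin1-/- libraries, so it too entered the test through the genotype in which it was high. The collagenases and stromelysins Mmp1a, Mmp1b, Mmp3, Mmp8, Mmp10 and Mmp13 had at most 45 counts in a mouse. Of the broad-spectrum protease inhibitors of the α2-macroglobulin family, made by hepatocytes, Pzp was lower on both diets, and Mug1 and Mug2 were called on 1 diet each. Pzp was at 5520 ± 428 CPM in WT LFD and 4410 ± 396 CPM in Adn-Lpin1-/- LFD (log2 fold change -0.33, SE 0.09, adjusted p = 0.0252 by edgeR), and its log2 fold change on the HFD was -0.50 (SE 0.09, adjusted p = 0.00165 by edgeR). The LFD call was lost without mouse 3 of WT LFD and without mouse 5 of Adn-Lpin1-/- LFD. Mug1 was lower on the LFD (log2 fold change -0.47, SE 0.13; -0.32, adjusted p = 0.0771 by edgeR on the HFD), a call lost without mouse 3 of WT LFD, and Mug2 on the HFD (-0.51, SE 0.17; -0.28, adjusted p = 0.28 by edgeR on the LFD), a call lost in 7 of 20 fits with a mouse left out. Mug1, Mug2 and Pzp are close relatives. Per the study's methods only reads that aligned uniquely and without ambiguity were counted, so reads that fit more than 1 of these genes were left out.

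Among 9 other ADAMTS proteases tested, Adamts10, which is linked to fibrillin microfibrils, was higher in Adn-Lpin1-/- livers on both diets, from 10.8 ± 1.74 to 15.0 ± 1.56 CPM on the LFD and from 8.31 ± 0.764 to 14.3 ± 1.06 CPM on the HFD (log2 fold changes 0.47 and 0.78, SE 0.1 each, adjusted p = 0.00525 and 7.1e-05 by edgeR). Adamts7 was higher on the HFD (0.91, SE 0.17, adjusted p = 0.00134 by edgeR) and was at 8.25 ± 1.45 CPM in WT LFD and 8.34 ± 0.629 CPM in Adn-Lpin1-/- LFD. Adamts14, which like Adamts2 trims procollagen, was higher on the HFD (0.83, SE 0.25, adjusted p = 0.0255 by edgeR), a call lost without mouse 2 or 3 of either HFD group. Of 7 ADAM proteases, Adam33 was higher on both diets (log2 fold changes 1.16 and 1.04, adjusted p = 0.00289 and 0.00522 by edgeR), and Adam17, the TNF-α converting enzyme, was called on the HFD, from 15.0 ± 1.47 CPM in WT to 17.5 ± 0.902 CPM in Adn-Lpin1-/-, a call kept in 6 of 20 fits with a mouse left out.

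The crosslinking enzymes other than Lox were well enough counted to be tested. Of 6, 4 were higher on the LFD (Loxl1, Loxl2, Loxl3 and Tgm2) and 0 on the HFD, where 1, the keratinocyte transglutaminase Tgm1, was lower; of all tested genes, 6.27% were higher on the LFD, and 9.87% were higher and 8.78% lower on the HFD. Loxl2 was at 1.11 ± 0.306 CPM in WT LFD and 2.8 ± 1.05 CPM in Adn-Lpin1-/- LFD (log2 fold change 1.33, SE 0.31, adjusted p = 0.00792 by edgeR). Loxl1 had a log2 fold change of 1.56 on the LFD (SE 0.44, adjusted p = 0.0237 by edgeR), lost without mouse 3 of WT LFD and without mouse 2 of Adn-Lpin1-/- LFD. Tgm2, tissue transglutaminase, was at 63.0 ± 10.1 and 90.7 ± 13.6 CPM (0.53, SE 0.13, adjusted p = 0.0108 by edgeR). On the HFD, Loxl2 (0.78, SE 0.3), Loxl1 (0.79, SE 0.42) and Tgm2 (0.22, SE 0.13) did not pass, and Tgm1 was at 25.3 ± 7.52 CPM in WT and 12.1 ± 3.43 CPM in Adn-Lpin1-/- (-1.07, SE 0.29, adjusted p = 0.015 by edgeR).

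In procollagen processing, Pcolce, an enhancer of procollagen C-proteinase, had a log2 fold change of 0.68 on the LFD (SE 0.22, adjusted p = 0.0451 by edgeR), a call kept in 7 of 20 fits with a mouse left out. Among all tested genes, 6.27% were higher and 8.11% lower on the LFD, and 9.87% were higher and 8.78% lower on the HFD. Of 12 tested genes of collagen modification and folding, 2 were higher on the LFD, and 2 were higher and 1 lower on the HFD. Serpinh1, the collagen chaperone, was called on both diets (0.85, SE 0.23, and 0.66, SE 0.22), and Plod1, a lysyl hydroxylase, was higher on the HFD (0.29, SE 0.07, adjusted p = 0.00798 by edgeR). The HFD call of Serpinh1 was kept in 10 of 20 fits with a mouse left out, and its LFD call was lost without mouse 3 of WT LFD and without mouse 2 of Adn-Lpin1-/- LFD. P3h4, part of a collagen lysyl hydroxylation complex, was called on the LFD (0.80, SE 0.26, adjusted p = 0.0469 by edgeR), in 5 of 20 fits with a mouse left out, and was over 1 CPM in 0 WT and 5 Adn-Lpin1-/- libraries. Ppib, a collagen prolyl isomerase, was lower on the HFD (-0.36, SE 0.11, adjusted p = 0.0329 by edgeR), in 16 of 20 fits with a mouse left out. In the plasminogen system, Plg, the proenzyme of plasmin, was lower on both diets, from 2770 ± 192 to 2050 ± 226 CPM on the LFD and from 2780 ± 217 to 2140 ± 216 CPM on the HFD (log2 fold changes -0.43 and -0.38, SE 0.09 each). Serpinf2, the main plasmin inhibitor, was lower too (-0.46 and -0.52, SE 0.1 each). Both calls of each were kept in all 31 alternatives. Plgrkt, a plasminogen receptor, was higher on the HFD (0.58, SE 0.16, adjusted p = 0.0167 by edgeR), a call lost without mouse 2 of Adn-Lpin1-/- HFD.

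The collagens on which these enzymes act were higher in Adn-Lpin1-/- livers, 9 of 10 (LFD) and 7 of 10 (HFD), against 6.27% and 9.87% of all tested genes, and the medians on the log2 scale were 1.28 and 1.02. The collagen list, too, was chosen with earlier results of these data known, so these shares are a description. Col4a2 of the basement membrane was at 21.8 ± 6.72 CPM in WT LFD and 44.9 ± 10.6 CPM in Adn-Lpin1-/- LFD (log2 fold changes 1.04 for the LFD and 1.10 for the HFD, SE 0.23 each, adjusted p = 0.006 and 0.00359 by edgeR). Col4a1 (1.18, SE 0.26, and 0.94, SE 0.26) and Col6a3 (1.38, SE 0.31, and 1.14, SE 0.3) were called on both diets, the HFD call of Col4a1 being lost without mouse 1 or 2 of Adn-Lpin1-/- HFD, and Col6a2 on the LFD (1.38, SE 0.3). The fibrillar chains Col1a1 (2.85 on the LFD and 2.27 on the HFD), Col3a1 (1.94 and 1.6) and Col1a2 (1.88 and 1.54) had larger log2 fold changes and were called on both diets. No collagen was called by diet in either genotype.

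**Figure D5:**
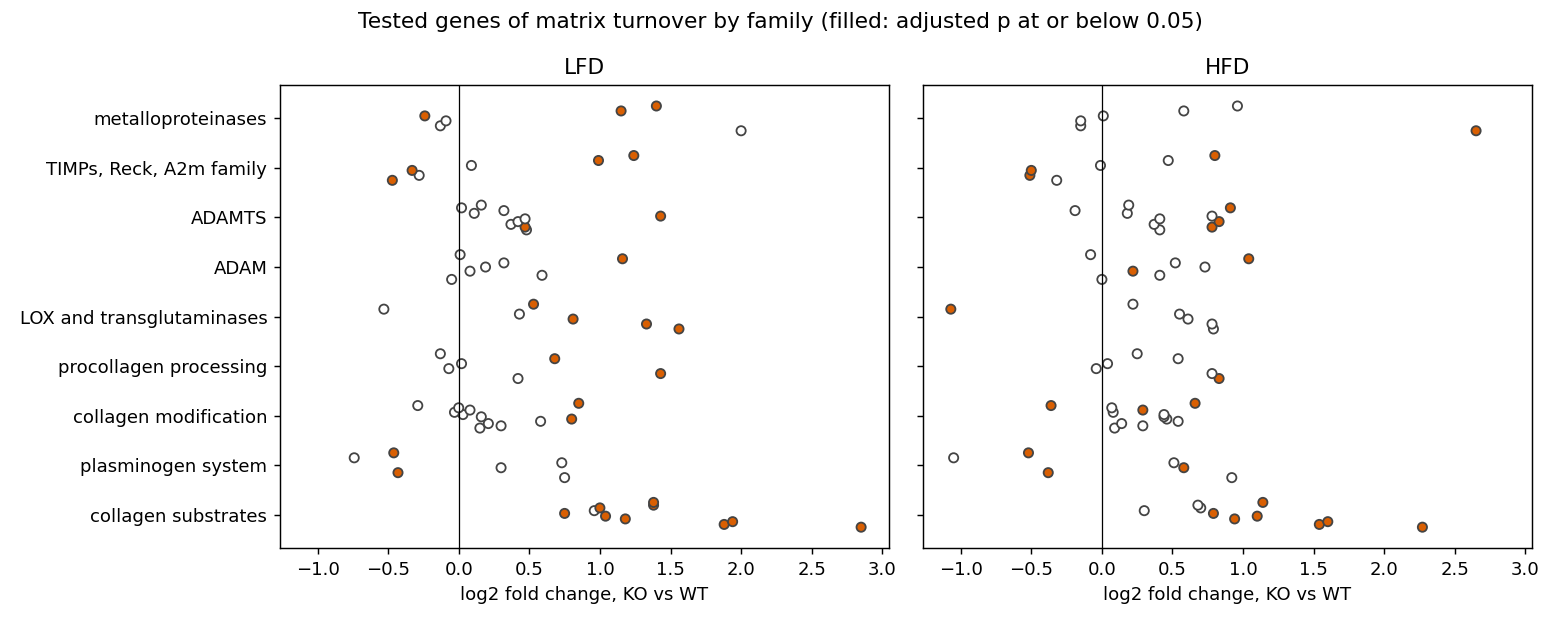
Log2 fold change of KO (Adn-Lpin1-/-) against WT for each tested gene of 9 families, the 10 genes included, on the LFD (left) and the HFD (right), with filled points at an adjusted p at or below 0.05. All 10 collagens lie to the right of 0 on both diets, and the metalloproteinases and inhibitors lie on both sides.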

How the data were processed

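Liver poly-A RNA of 20 single mice (5 in each of 4 groups) and 4 pools was sequenced. Per the labels and the methods, the authors aligned reads with STAR 2.5.1a to GRCm38 and counted them with featureCounts 1.4.6-p5 on Ensembl release 76. They deposited for each of 41388 genes the raw count, the CPM (counts scaled to a library size of 1000000) and the RPKM (also per kilobase of exon). Only the deposited counts were tested, the deposited CPM served as a check of range, and the deposited RPKM gave the summed TIMP and metalloproteinase levels. Strand use in counting is not given in the sources used here. Symbols were matched for 40254 identifiers, with gene types and coordinates from GENCODE M21 on GRCm38. The 355 rRNA genes (0.265% to 0.465% of counts) were left out.

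The limit on low counts was 1 CPM exceeded by 4 or more of 20 libraries, and genes past it were fitted with edgeR 4.0.16 (R 4.3.3, TMM scaling, 4 group means, quasi-likelihood test, Benjamini-Hochberg over 13052 genes, threshold 0.05). The SE was the log2 fold change over the root of F, and 95% intervals of folds were taken from it by the normal quantile. Exact two-sided permutation tests of 5 mice against 5 used log2(CPM + 1), and deviations used log2(CPM + 0.1). Intervals and p values measure the spread between mice of these libraries. Scripts were tested on simulated data. The alternatives were DESeq2 1.42.0 (size factors and Wald test), voom of limma 3.58.1, the pools as libraries, other limits on low counts, the 2 groups alone, the replicate number as a block, removal of a GC trend, thinning to the smallest total, and each mouse left out. Python 3.11.15 (numpy 2.4.6, scipy 1.17.1, pandas 2.3.3, matplotlib 3.10.9) was used for the rest.

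The 10 genes and the lists were chosen with earlier results of these data known. All 10 are named. Of the other listed genes, those called in a genotype comparison are named, at most 4 per list by the smallest p, and for each tested member the 2 genes of highest Pearson r. Loxl3, Reck, the uncalled collagenases and, among the collagens, Col1a1, Col1a2 and Col3a1 were named after their values were seen.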

Additional observations from a re-analysis of the deposited data

Results flagged for a closer look

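Of 40 groups of 5 mice (10 genes in 4 groups), 1 held a mouse that stood apart by Dixon's test, where chance gives about 1 in 20. Lox in mouse 2 of Adn-Lpin1-/- LFD was at 0.598 CPM, from 31 counts, and the nearest of the other 4 mice was at 0.152 CPM. The gap was 0.747 of the range of the group, against a critical value of 0.71. The same mouse had the highest mesothelial marker sum of the 20, at 14.8 CPM, and the part of that in its Lox level was not tested.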

How the results depend on the processing

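The LFD calls of Timp2, Timp3 and Adamts2 were kept in all 31 alternatives. So was the HFD call of Mmp12, a gene that passed the limit on low counts only through Adn-Lpin1-/- libraries, the fit with no limit included. The call of Mmp19 by diet in Adn-Lpin1-/- mice was kept in 30. The number of the 8 tested members called by genotype on the LFD (5) was 3 with the replicate number as a block and 3 to 6 with 1 mouse left out. On the HFD (2) it was 5 by voom with quality weights and the pools, 1 with the block and 1 to 3 with 1 mouse left out. By diet it was 1 in WT and 2 in Adn-Lpin1-/- mice by voom with the pools, and 0 in Adn-Lpin1-/- mice with only the groups compared. The block ended the calls of Mmp2 (adjusted p = 0.0681 by edgeR) and Mmp19 (0.0715) on the LFD and of Timp3 (0.057) on the HFD. Replicate numbers did not pair the samples, since 6 of 30 same-numbered pairs had an r over 0.1 (median -0.0112), so the cause of these losses was not tested.

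DESeq2 called Mmp12 on the LFD (adjusted p = 0.0176) and Adamts2 on the HFD (0.0375), and the fits with the pools, which repeat RNA of the same mice, did so too. Among values near 0, the log2 fold change of Adamts7 on the LFD was -0.08 with the GC trend removed, -0.02 after thinning and -0.06 to 0.11 with 1 mouse left out, and that of Mmp19 on the HFD was -0.01 with edgeR's own filter and -0.04 to 0.04 with 1 mouse left out. With 1 mouse left out, the diet values in Adn-Lpin1-/- mice ran from -0.27 to 0.07 for Timp2, -0.11 to 0.34 for Timp3, -0.2 to 0.43 for Mmp2 and -0.36 to 0.06 for Adamts2, and the interaction from -0.1 to 0.05 for Mmp14 and -0.14 to 0.04 for Mmp15. The cause was not tested.

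Over all genes, 1877 calls by genotype on the LFD became 4163 by voom with the pools and 3008 with the pools in edgeR, and 2434 on the HFD became 4740 and 3760. By diet, 144 calls in WT mice became 400 by DESeq2, 670 by voom, 1938 and 687 with the pools, 72 with only the groups compared and 90 with the block. In Adn-Lpin1-/- mice 321 became 577 by DESeq2, 2342 and 958 with the pools, 161 with only the groups compared and 214 with the block. With 1 mouse left out, the counts ran from 1210 (without mouse 3 of WT LFD) to 1959 on the LFD, from 1475 to 2756 on the HFD, the lowest without mouse 2 of Adn-Lpin1-/- HFD, from 55 (without mouse 3 of WT HFD) to 289 (without mouse 5 of WT LFD) by diet in WT mice and from 123 (without mouse 3 of Adn-Lpin1-/- LFD) to 378 by diet in Adn-Lpin1-/- mice. For the interaction, 0 became 30 by DESeq2 and 189 and 4 with the pools. Timp1 and Lox are limited by depth, with at most 42 and 31 counts in a mouse.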

Other observations

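The 4 pooled libraries repeat the RNA of the mice of their groups and entered only the alternative fits that name them. On CPM of the plain library totals, without TMM scaling, 33 of the 40 pool levels fell between the lowest and the highest mouse of the group (10 genes in 4 groups), 4 fell below and 3 above. Timp1 was at 0.821 CPM in the pool of Adn-Lpin1-/- HFD, where the highest mouse was at 0.73 CPM, and at 0.209 CPM in that of WT LFD, where the highest mouse was at 0.142 CPM. Mmp2 was at 1.35 CPM in the pool of WT HFD, below the lowest mouse at 1.89 CPM. Mmp12 was at 0.619 CPM in the pool of WT HFD, above the highest mouse at 0.5 CPM, and at 0.0698 CPM in that of WT LFD, below the lowest at 0.087 CPM. Lox was below its lowest mouse in the pools of WT LFD (0.0698 CPM) and WT HFD (0.0364 CPM).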
